A study of Homo sapiens with 5 samples.

Results

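The splicing factors described here are the genes of 4 families, picked by symbol alone: SRSF followed by a number, HNRNP followed by letters or digits, SF3A or SF3B followed by a digit, and SNRP followed by letters or digits. The rule found 56 of the 12468 genes in the deposited tables, with 12 SRSF, 23 HNRNP, 9 SF3 and 12 SNRP genes. RNA sequencing was performed in HLF, an established human hepatocellular carcinoma cell line, and the study asked how the deubiquitinase USP28 and its dimerization affect gene expression. The 5 samples, 1 for each condition, were USP28-Ctrl (sgCtrl), USP28-KO (sgUsp28), and USP28-KO cells that carried an empty vector (pRRL-Ctrl), wildtype USP28 (USP28-WT, pRRL-Usp28-WT) or a monomeric form with a mutated dimer interface (USP28-M, pRRL-Usp28-Mono). The knockout was made with CRISPR and grown from single clones, the alleles were added by lentiviral transduction, and none of the cells was treated.

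Pre-mRNA splicing is carried out by the spliceosome, which is built on each intron from small nuclear RNA-protein particles (snRNPs) and many helper proteins. SNRP genes encode proteins of these particles, among them the ring of Sm proteins that all major snRNPs except U6 share, and SF3 genes encode the SF3a and SF3b complexes of the U2 snRNP, which recognises the branch point. SR proteins (SRSF) often bind exonic enhancers and promote exon use, whereas hnRNP proteins coat nascent RNA and often repress it. Many of these genes control their own mRNA through poison exons or retained introns.

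Each deposited table gave 1 average log2 CPM (counts scaled to library size, on a log2 scale) for a gene over all libraries of a fit. The average of the knockout fit ran over the USP28-Ctrl and USP28-KO libraries, and that of the reconstitution fit over the vector, USP28-WT and USP28-M libraries. Levels in single conditions were not analysed here, so no value below compares USP28-KO with USP28-Ctrl or USP28-WT with USP28-M, and no spread between replicates can be given. The spacing of the lowest values gave a total depth of about 7690000 reads over the libraries of the knockout fit and about 30500000 over those of the reconstitution fit. In the former, 96.6% of the 1110 lowest genes lay within 0.1 read of a whole number of reads from a common offset. In the latter 66.1% of 1234 did, so that the second depth is less certain. Spacing and offset were fitted to these same genes. The 95% counting intervals of the splicing factors (exact Poisson, counting error only) reached at most 0.41 log2 units to one side in the knockout fit, for HNRNPA3P1, and 0.16 in the reconstitution fit, for SRSF12.

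USP28 itself, the targeted gene, averaged 5.15 log2 CPM in the knockout fit and 9.79 in the reconstitution fit. Because an average mixes conditions, it does not check the label of any one sample. Of 8 hepatocyte markers, none was listed in the knockout fit and 1 in the reconstitution fit, SERPINA1 at 1.88 log2 CPM. The mesenchymal markers VIM, CDH2, FN1 and ZEB1 were all listed in both fits, VIM at 11.71 and 11.69 log2 CPM, and of 4 epithelial markers only the keratins KRT8 and KRT18 were. ALB, APOA1, APOB, TTR, HNF4A, AFP and CYP3A4 were not listed in either fit. The filter on low genes behind the tables is not given, so this does not show that their mRNA was absent.

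Of the 56 splicing factors, 55 were listed in both fits. The exception was HNRNPA3P1, a pseudogene of HNRNPA3, which averaged 2.81 log2 CPM in the knockout fit and was not listed in the other. All 12 protein-coding SRSF genes and all 9 SF3 genes of RefSeq (GRCh38.p14) were listed, as were 21 of 26 coding HNRNP genes and 11 of 12 coding SNRP genes. HNRNPA1L3, HNRNPCL1, HNRNPCL2, HNRNPCL3, HNRNPCL4 and SNRPN were not analysed here. The rule also took in 3 pseudogenes, HNRNPA1P10, HNRNPA3P1 and SNRPGP15, out of 127 HNRNP and 62 SNRP pseudogenes that carry such symbols.

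The copies matter because a short read can match a parent and its copy equally well. The following 60-base stretches of GENCODE 29 transcripts, given in the direction of transcription with GRCh38 positions, were chosen because HNRNPA1 and its copies are nearly identical there. Over whole transcripts HNRNPA1L2 shared 47.6% and HNRNPA1P10 72.8% of its 50-base words with HNRNPA1. The parent stretch lies in coding sequence, in exon 3 of 11 of HNRNPA1 (chr12:54281823-54281882, plus strand). The copies have 1 exon each, and capitals mark the base at which a copy differs from the parent.
HNRNPA1: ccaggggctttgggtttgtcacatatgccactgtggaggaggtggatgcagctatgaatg
HNRNPA1L2 (chr13:52642653-52642712, plus strand): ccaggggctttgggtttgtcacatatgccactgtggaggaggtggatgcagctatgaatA
HNRNPA1P10 (chr19:11666811-11666870, minus strand): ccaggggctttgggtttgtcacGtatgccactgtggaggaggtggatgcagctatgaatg

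A stretch chosen in the same way is shown for SNRPG, the smallest Sm protein, and its copy SNRPGP15, which shared 37.0% of its 50-base words with SNRPG. The SNRPG stretch lies in exon 3 of 5 (chr2:70288083-70288142, minus strand), and the copy again has a single exon.
SNRPG: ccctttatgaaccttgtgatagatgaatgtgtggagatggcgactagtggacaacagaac
SNRPGP15 (chr19:14489493-14489552, plus strand): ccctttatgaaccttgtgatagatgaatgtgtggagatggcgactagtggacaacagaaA

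Levels between genes were compared per length, as the average log2 CPM minus log2 of the median length in kilobases of a gene's coding transcripts. All 4 families stood above the median gene. In the knockout fit the family medians were 8.36 log2 CPM per kb for HNRNP, 6.93 for SNRP, 6.88 for SRSF and 6.64 for SF3, beside 4.47 for all genes. In the reconstitution fit they were 7.95, 6.98, 6.24 and 6.60 in the same order, beside 4.06. Altogether 52 of 56 splicing factors lay above the median gene in the first fit and 53 of 55 in the second. HNRNP had the highest family median in both fits with each of 3 lengths (the median coding transcript, the longest one, or the union of exons), whereas the order of the other 3 families changed with the length chosen. Summed over genes and not scaled by length, HNRNP took 1.21% of the CPM in the knockout fit and 0.987% in the reconstitution fit, SRSF 0.271% and 0.188%, SF3 0.179% and 0.184%, and SNRP 0.150% and 0.132%. The HNRNP sums include the copies HNRNPA1L2, with 492 CPM in the knockout fit and 169 in the reconstitution fit, and HNRNPA1P10, with 882 and 228.

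**Figure D1:**
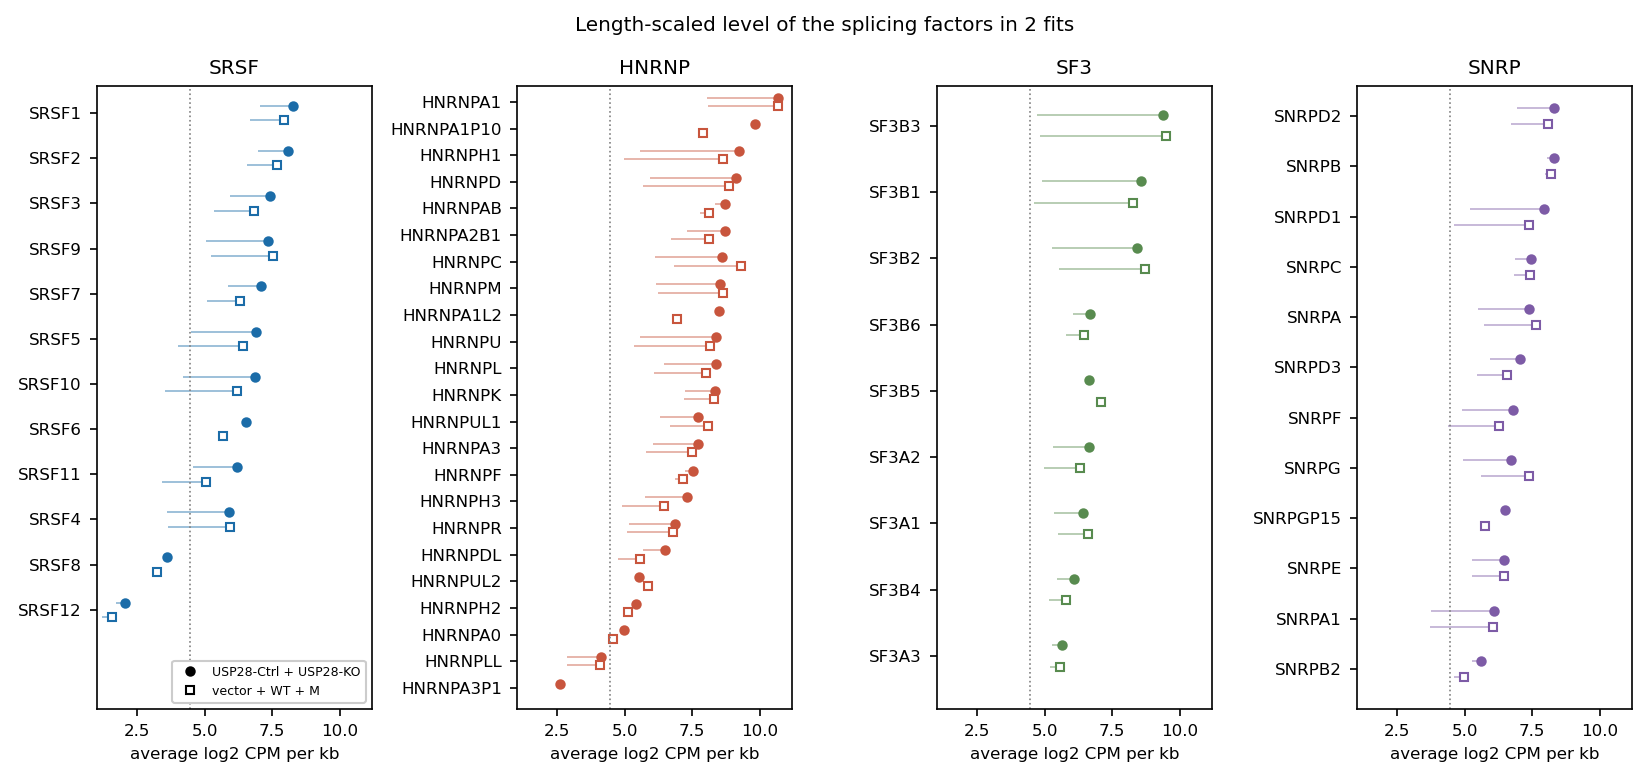
Average level of each splicing factor in log2 CPM per kb, by family, with filled circles for the knockout fit and open squares for the reconstitution fit. Symbols use the median coding transcript, the thin lines span the values from the median transcript, the longest one and the union of exons, and the dotted line is the median of all genes in the knockout fit (4.47). SRSF8 and SRSF12 sit lowest among SRSF genes, and the long lines of SF3B1 and SF3B3 show that their place depends on the length used.

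Among the SR proteins, SRSF1 and SRSF2 led the knockout fit with all 3 lengths. SRSF1, a prototype of the family that also acts in export and translation, averaged 8.78 log2 CPM in the knockout fit and 8.43 in the reconstitution fit, or 8.28 and 7.93 per kb. SRSF2 followed with 8.56 and 8.15 log2 CPM, or 8.09 and 7.68 per kb. In the reconstitution fit SRSF1 stayed first with the median transcript and the union of exons, but with the longest transcript SRSF9 was higher, at 6.88 log2 CPM per kb against 6.79.

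SRSF3, the smallest SR protein and a factor in mRNA export, averaged 7.44 and 6.82 log2 CPM per kb in the 2 fits. SRSF7, another adaptor of export, had 7.09 and 6.30, and SRSF5 had 6.90 and 6.43. SRSF4 and SRSF11 were in the lower part of the family, SRSF4 with 5.91 and 5.94 and SRSF11 with 6.22 and 5.07. The 2 lowest genes were the same in both fits and with every length. SRSF8, a relative of SRSF2 that arose as a retrocopy, had 3.61 and 3.24 log2 CPM per kb, and SRSF12, an SR-related repressor, had 2.07 and 1.56. With the median transcript, these were the only SRSF genes below the median gene. Of the 11 pairs of neighbours in the SRSF order, 2 had overlapping counting intervals in the knockout fit and 0 in the reconstitution fit. This order is that of the median transcript, and the middle of it turned with the length. SRSF6 stood at places 8 and 9 in the 2 fits, but at place 3 in both with the union of exons. SRSF5 stood at places 6 and 5, but at 10 and 9 with the longest transcript.

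Among the hnRNP genes, HNRNPA1, an abundant shuttling protein that often represses exons, was highest per length in the reconstitution fit with all 3 lengths. It averaged 10.41 log2 CPM in the knockout fit and 10.42 in the reconstitution fit, or 10.67 and 10.69 per kb. With the longest transcript these values were 8.37 and 8.38. In the knockout fit HNRNPA1 was then at place 5 of 23. Above it were its copies HNRNPA1P10 (9.84) and HNRNPA1L2 (8.49), and HNRNPA2B1 (8.65) and HNRNPAB (8.61). With the union of exons HNRNPA1 was at place 4 in that fit. HNRNPA2B1, a close relative known for binding RNAs that travel in neurites and exosomes, averaged 10.52 and 9.93 log2 CPM in the 2 fits, or 8.71 and 8.11 per kb. HNRNPU, which binds chromatin and the nuclear scaffold, had 10.06 and 9.83 log2 CPM, or 8.40 and 8.17 per kb.

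HNRNPH1, which binds G-rich tracts, and HNRNPD, also known as AUF1 and a regulator of mRNA decay, came next after HNRNPA1 and its copy in the knockout fit, at 9.24 and 9.14 log2 CPM per kb. Both depended on the length, since with the longest transcript they stood at places 14 and 12 of 23. Their median coding transcripts had 741.5 and 765 bases, beside 3667 and 3033 for the longest. HNRNPC, which binds uridine tracts and measures the length of transcripts, averaged 8.60 log2 CPM per kb in the knockout fit and 9.32 in the reconstitution fit, where it took second place with the median transcript. At the other end, HNRNPA0 and HNRNPLL were the lowest coding hnRNP genes in both fits with all 3 lengths. HNRNPA0, an intronless relative of HNRNPA1, had 4.98 and 4.56 log2 CPM per kb, and HNRNPLL, known for CD45 splicing in lymphocytes, 4.11 in both fits. The pseudogene HNRNPA3P1 was lower still, at 2.62 in the knockout fit. HNRNPH2, on the X chromosome, had 5.44 and 5.13. Of 22 pairs of neighbours, 8 had overlapping counting intervals in the knockout fit, and 4 of 21 in the reconstitution fit.

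The order of the SF3 genes could not be fixed, because it turned with the length. SF3B3, a scaffold of SF3b, was first per length with the median transcript, at 9.38 and 9.49 log2 CPM per kb, but came to 5.08 and 5.19 with the longest one, which was 19.8 times as long. SF3B1, the HEAT-repeat subunit at the branch point that is often mutated in blood cancers, behaved alike, with 8.59 and 8.28 against 5.41 and 5.11. The median coding transcript had 491 bases for SF3B3 and 723 for SF3B1, beside 9720 and 6526 for the longest. The high values of both genes with the median transcript thus rest on short annotated transcripts. SF3B2 had 8.44 and 8.72 with the median transcript and was first in both fits with the longest one, at 6.85 and 7.13. SF3B6 (p14), which contacts the branch point adenosine, and the small subunit SF3B5 had the same level with the median and the longest transcript. SF3B6 averaged 6.69 log2 CPM per kb in the knockout fit and 6.45 in the reconstitution fit, and SF3B5 6.64 and 7.09. SF3A1, SF3A2 and SF3A3, the subunits of SF3a, lay closer together. The highest of them stood 1.97-fold above the lowest in the knockout fit and 2.03-fold in the reconstitution fit, with smaller ratios with the other lengths. SF3A1, SF3B4 and SF3A3 were the lowest SF3 genes of the knockout fit with the median transcript, at 6.43, 6.09 and 5.66 log2 CPM per kb.

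The 7 Sm proteins form a ring with a single copy of each. Their mRNA levels per length spanned 3.62-fold in the knockout fit, from SNRPD2 at 8.33 log2 CPM per kb to SNRPE at 6.47, and 3.83-fold in the reconstitution fit, from SNRPB at 8.21 to SNRPF at 6.28. With the longest transcript the ratios were 8.07 and 11.3. SNRPB, which encodes SmB and SmB', was among the first 2 SNRP genes in both fits with all 3 lengths. SNRPD1 had 7.96 and 7.38 with the median transcript, yet was the last of 12 genes with the longest one, at 5.19 and 4.62. SNRPD3 had 7.06 and 6.58 with the median transcript.

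Of the proteins particular to the U1 particle, SNRPC had 7.47 and 7.41 log2 CPM per kb, and SNRPA, which binds a loop of U1 RNA, 7.40 and 7.64. The U2 proteins SNRPA1 and SNRPB2 were lower, SNRPA1 with 6.11 and 6.06 and SNRPB2 with 5.63 and 4.99. SNRPG averaged 6.74 and 7.40, and its copy SNRPGP15 6.50 and 5.74. Counting intervals of neighbours overlapped for 5 of 11 SNRP pairs in the knockout fit and for 2 of 11 in the reconstitution fit.

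The averages of the 2 fits were then set side by side. The fits hold different cells, transduced in the reconstitution fit only, and were normalized apart by the authors. They also differ in USP28 status. The knockout fit includes USP28-Ctrl, whereas all cells of the reconstitution fit carry the knockout, with USP28 added in USP28-WT and USP28-M. The parts of cells, USP28 status, transduction and normalization cannot be told apart, and with 1 average per fit there is no test. The median gene was 0.12 log2 units lower in the reconstitution fit, and the differences below are given after this median was subtracted. Over the 10976 genes in both fits, 14.0% were higher in the reconstitution fit by at least 0.5 log2 units and 19.6% were lower by as much. Of the 55 splicing factors, 4 were higher and 10 were lower by at least 0.5, which is 7.27% and 18.2% of them. By at least 1 log2 unit 0 were higher and 3 (SRSF11, HNRNPA1L2 and HNRNPA1P10) were lower, beside 2.41% and 6.61% of all genes. The family medians were -0.37 for SRSF, -0.18 for HNRNP, 0.04 for SF3 and -0.03 for SNRP.

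**Figure D2:**
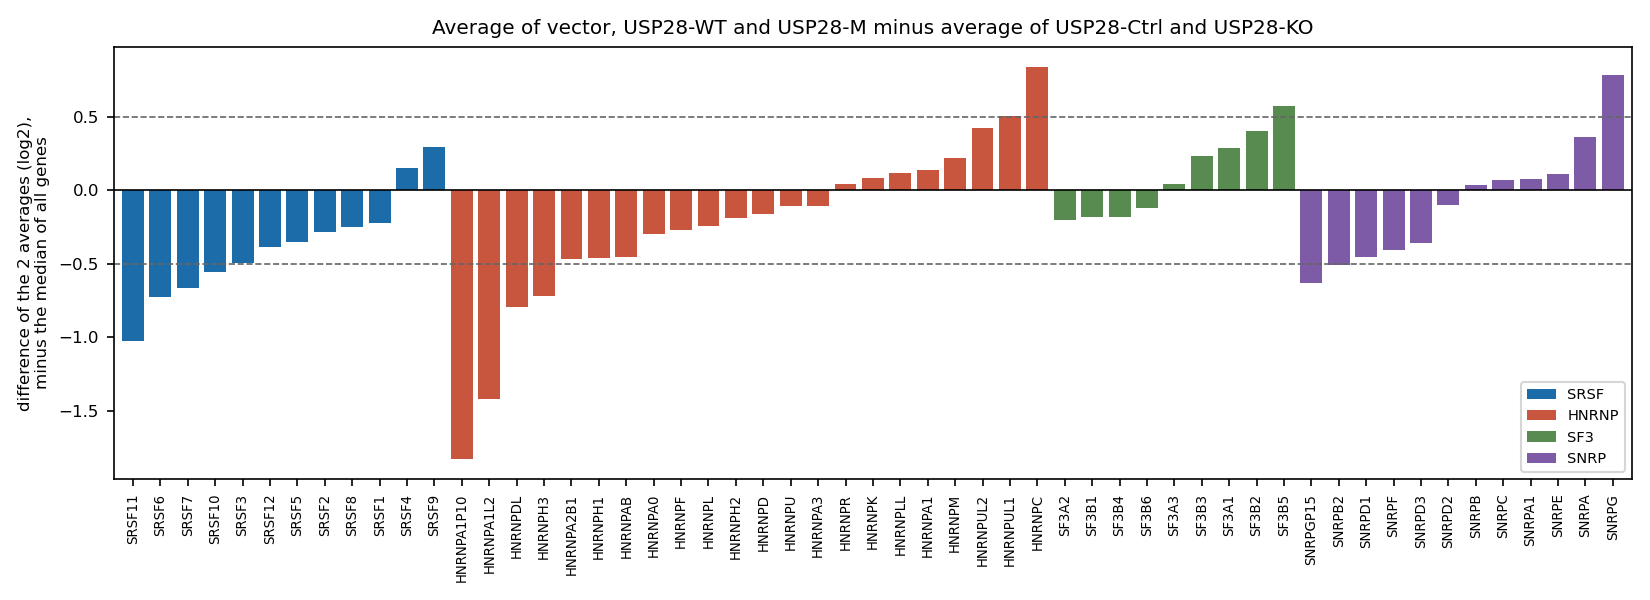
Difference between the average log2 CPM of the reconstitution fit and that of the knockout fit for the 55 splicing factors in both fits, minus the median of all genes, 1 bar per gene and sorted within each family. Dashed lines mark 0.5 log2 units in either direction. Of the 12 SRSF bars, 10 point down, HNRNPA1P10 and HNRNPA1L2 reach furthest down and HNRNPC and SNRPG furthest up.

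Of the 12 SRSF genes, 10 were below the median gene on this scale and 2 above it, SRSF9 with 0.29 and SRSF4 with 0.15. SRSF11, which binds U2AF2, had the lowest value of the family, -1.03, from 7.66 log2 CPM in the knockout fit to 6.51 in the reconstitution fit. SRSF6 was at -0.73, with 8.64 and 7.79 log2 CPM, SRSF7 at -0.66, with 7.89 and 7.11, and SRSF10, a repressor when dephosphorylated, at -0.55, with 7.57 and 6.89. SRSF3 lay just short of 0.5, at -0.50. The number of SRSF genes past 0.5 was thus 0 upward and 4 downward of 12, beside 14.0% and 19.6% of all genes.

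Among the 22 HNRNP genes in both fits, 2 were higher and 4 lower by at least 0.5, beside 14.0% and 19.6% of all genes. HNRNPC stood at 0.84, from 8.99 to 9.71 log2 CPM, and HNRNPUL1, a relative of HNRNPU that acts at DNA breaks, at 0.50, with HNRNPUL2 next at 0.42. Past the threshold downward were the copies HNRNPA1P10 (-1.83) and HNRNPA1L2 (-1.42), HNRNPDL (-0.80) and HNRNPH3 (-0.72). HNRNPDL, a paralogue of HNRNPD, went from 8.13 to 7.21 log2 CPM, while HNRNPD itself was at -0.16. HNRNPH3 went from 8.18 to 7.33 log2 CPM, and its relatives HNRNPH1, HNRNPF and HNRNPH2 were at -0.46, -0.27 and -0.19. HNRNPA2B1 was at -0.47, and HNRNPK, an hnRNP that binds cytidine-rich RNA, at 0.08.

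In the SF3 family 1 of 9 genes passed the threshold, SF3B5 at 0.57. The other SF3 genes lay between -0.20 for SF3A2 and 0.40 for SF3B2, with SF3A1 at 0.29 and SF3B1 and SF3B4 at -0.18. In the SNRP family 1 of 12 was higher, SNRPG at 0.78, from 5.80 to 6.45 log2 CPM, and 2 were lower, SNRPGP15 at -0.63 and SNRPB2 at -0.51. Beside the counts of both families stand 14.0% of all genes higher and 19.6% lower by at least 0.5. SNRPA came next below SNRPG, at 0.36. The partners of SNRPG in the Sm ring ranged from -0.45 for SNRPD1 to 0.11 for SNRPE.

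HNRNPA1 and its copies were looked at in more detail. HNRNPA1 averaged 10.41 and 10.42 log2 CPM in the knockout and the reconstitution fit, HNRNPA1L2 8.94 and 7.40, and HNRNPA1P10 9.78 and 7.83. Together the 3 genes came to 2733 CPM in the knockout fit and 1768 CPM in the reconstitution fit, and the copies made up 50.3% and 22.4% of these sums. Of the 50-base words in its transcripts, HNRNPA1P10 shared 88.4% with other annotated genes, HNRNPA1L2 58.5% and HNRNPA1 25.4%. Whether reads of HNRNPA1 were counted under its copies was not tested.

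**Figure D3:**
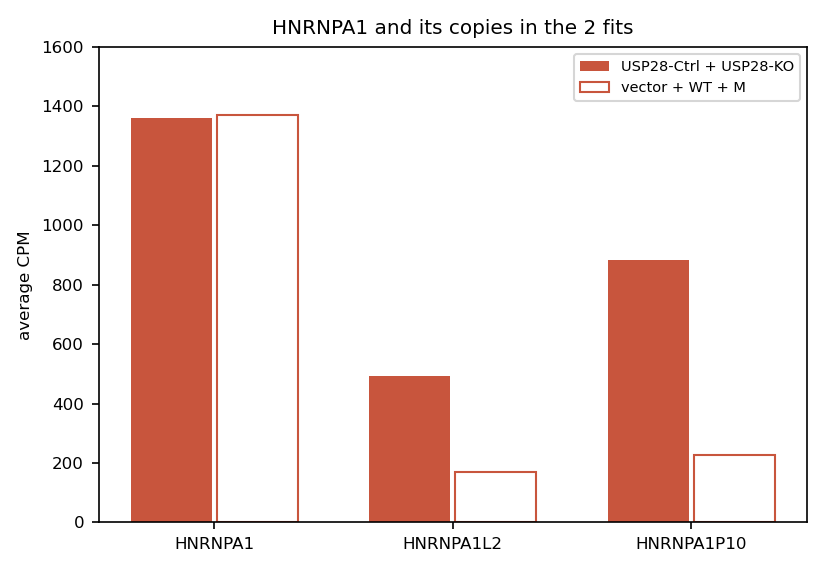
Average CPM of HNRNPA1 and its copies HNRNPA1L2 and HNRNPA1P10, with filled bars for the knockout fit and open bars for the reconstitution fit. HNRNPA1 is at nearly the same height in both, while both copies are lower in the reconstitution fit.

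The same direction was seen across pseudogenes. Of 32 processed pseudogenes in both fits, 28 were below 0 after centring and 26 (81.2%) were lower by at least 0.5, beside 19.6% of all genes, and their median was -1.04. The 32 include HNRNPA1P10 and SNRPGP15 themselves. How the libraries were aligned and counted is known only in part, and the part of multiply matching reads in the values of HNRNPA1L2, HNRNPA1P10 and SNRPGP15 was not tested. Other splicing factors with a large share of common 50-base words were SRSF1 (54.5%, with the overlapping gene AC015813.2), HNRNPUL2 (45.2%, with the readthrough HNRNPUL2-BSCL2), SNRPA1 (29.8%) and HNRNPL (27.8%). The exons of 25 of the 56 genes overlapped those of another gene, 11 of them on the same strand and 19 on the other. The named library kit, NEBNext Ultra, does not mark strand in its standard form, so reads of a gene and a partner on the other strand cannot be told apart.

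GC content moved with the difference between the fits. Across all 10744 genes with a transcript sequence, Spearman's rho between GC content and the difference was 0.48, a description across genes that share the same libraries. Within families it was 0.85 over the 12 SRSF genes, 0.20 over 22 HNRNP, 0.28 over 9 SF3 and 0.26 over 12 SNRP genes. SRSF9 and SRSF4, the genes above 0, had the highest GC contents of their family, 54.4% and 54.8%, and SRSF6, SRSF7 and SRSF11 lay between 39.6% and 40.9%. SRSF12 had the lowest GC content of the family, 38.0%, but a difference of only -0.39.

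When each gene was set against the genes within 1 percentage point of its GC content, the SRSF median was -0.27, and those of HNRNP, SF3 and SNRP were 0.03, 0.07 and -0.03. On this scale 2 of 12 SRSF genes were lower by at least 0.5, SRSF11 at -0.59 and SRSF2 at -0.51, and 0 were higher, beside 14.2% and 11.4% of all genes. Among HNRNP genes 5 of 22 were lower and 2 higher, among SNRP genes 1 of 12 lower and 2 higher, and among SF3 genes 0 of 9 in either direction. SRSF6 was at -0.19 and SRSF7 at -0.24. HNRNPA1P10 and HNRNPA1L2 were hardly moved, at -1.89 and -1.37, and HNRNPC was at 0.86. HNRNPLL, the lowest coding hnRNP gene, was at 0.67. HNRNPAB, an hnRNP of high GC content, was at -0.69. SNRPG was at 1.30 and SNRPE at 0.84. SNRPB2 changed sign, from -0.51 to 0.20. Depth and cells differ between the fits, and their part in the relation with GC content was not tested.

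A list of 49 other splicing genes, taken for comparison and not matched by the rule, was listed but for ESRP1, an epithelial splicing regulator. Its 48 genes had a median of 6.01 log2 CPM per kb in the knockout fit and 5.64 in the reconstitution fit, below each of the 4 families with the median transcript. PTBP1, a repressor that binds pyrimidine tracts, PCBP2 and PCBP1, which bind poly(C), were highest in the knockout fit, at 8.75, 8.74 and 8.65 log2 CPM per kb. SNRNP48 of the minor spliceosome, PTBP2, the neuronal paralogue of PTBP1, and the kinase CLK4, which phosphorylates SR proteins, were lowest, at 2.90, 3.24 and 2.61. Between the fits 4 of 48 were higher and 9 lower by at least 0.5, beside 14.0% and 19.6% of all genes. Higher were RBFOX2 (0.74), LSM4 (0.61) and the U5 proteins PRPF8 (0.54) and SNRNP200 (0.53). Lower were, among others, LSM8 (-0.88) and CDC5L (-0.86), and TRA2A, a relative of the SR proteins, at -0.72.

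The annotation lists transcript forms of the kinds through which many of these genes control their own mRNA. A listed form does not by itself show such control. Every one of the 12 SRSF genes had at least 1 transcript marked for nonsense-mediated decay in GENCODE 29, beside 13 of 21 coding HNRNP genes, 3 of 9 SF3 genes, 4 of 11 coding SNRP genes and 44.1% of the coding genes in the tables. A retained-intron transcript was annotated for 9 of 12 SRSF, 14 of 21 HNRNP, 6 of 9 SF3 and 5 of 11 SNRP genes, beside 58.6% of the coding genes. The tables count genes and not transcripts, so the use of these forms was not measured.

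Because the study concerns MYC, whose binding site is the E-box CACGTG, promoters were searched for these letters. The motif is its own reverse complement, so 1 search covers both strands. RefSeq promoters of GRCh38.p14, from 250 bases before to 50 after a start, were at hand for 49 of the 56 genes. CACGTG was found for 7 of 20 HNRNP genes, 1 of 8 SF3 genes, 0 of 11 SRSF and 0 of 10 SNRP genes, together 8 of 49 (16.3%), beside 12.8% of the genes of the tables and 8.77% of all genes with a promoter. Counted by promoter, it was found in 10 of 69 (14.5%), beside 9.46% for the genes of the tables and 7.26% of all promoters. A match is a description of the letters and says nothing of binding.

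The following 30-base windows show the motif, in capitals, where it lies upstream of a start, on the strand of the gene. They are printed because the HNRNP genes held most of the matches.
HNRNPA3 (chr2:177212711-177212740, plus strand): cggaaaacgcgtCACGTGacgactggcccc
HNRNPD (chr4:82374001-82374030, minus strand): gcgctctcgcgtCACGTGaccgggacgcgc
HNRNPDL (chr4:82430572-82430601, minus strand): ggagcccgagacCACGTGggcaggaaaagg
HNRNPH2 (chrX:101408168-101408197, plus strand): ccgagagttgctCACGTGaccgagatctca
HNRNPH3 (chr10:68331631-68331660, plus strand): tgccggtcgaacCACGTGgggccctttccg
HNRNPM (chr19:8444921-8444950, plus strand): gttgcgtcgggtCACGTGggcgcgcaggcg
SF3B1 (chr2:197435119-197435148, minus strand): tggcagttctgtCACGTGtcacccgacgga

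Positions were counted from the RefSeq start that the promoter belongs to, of which a gene can have several. The motif centre lay at -68 in HNRNPA3, -24 in HNRNPD, -47 in HNRNPH3 and -39 in HNRNPM and HNRNPH2. In HNRNPDL it lay at -124, and a second match, not printed above, lay at -153 from another start. The SF3B1 match lay at -105 and at -40, counted from different starts. HNRNPH2 held a second match at -6, and in HNRNPUL1, not printed above, the motif lay at 26, after the start. Of the 8 genes with the motif, HNRNPUL1 was higher by at least 0.5 between the fits (0.50) and HNRNPDL and HNRNPH3 were lower (-0.80 and -0.72), beside 14.0% and 19.6% of all genes. HNRNPA3, HNRNPD, HNRNPH2, HNRNPM and SF3B1 lay between -0.19 and 0.22.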

How the data were processed

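RNA of HLF cells was sequenced in 5 samples, 1 per condition. Per the labels, the authors used bcl2fastq 2.20, STAR 2.5.4, edgeR 3.26.8 and genome build hg19. The counting tool, annotation, filter, normalization and number of libraries per condition are not given in the sources used here. The deposited tables (3, one per comparison) hold the average log2 CPM over all libraries of a fit, by the authors, which was the only measurement used; in the knockout table it stands under a header shifted by 1 column. They also hold the authors' log2 fold changes, F statistics, p-values and false discovery rates of USP28-KO against USP28-Ctrl and of USP28-WT or USP28-M against the vector. These are the results of the study and were neither used nor compared. The averages of the USP28-WT and USP28-M tables were identical for all 12342 genes, so there are 2 fits. No column of per-sample values was present, so none could be left without a sample (0 columns).

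Because the averages are pooled, no spread, test or p-value could be given, and the count model planned for raw counts was not run. Levels were scaled by the median length of coding transcripts in GENCODE release 29 (matched by gene ID, otherwise by symbol, for 97.8% and 96.7% of genes). Every transcript annotated as coding was taken, however short. The longest transcript and the union of exons were alternatives, since for 25 of 56 genes the longest was over 1.5 times the median. Differences between fits were centred on the median of all genes, and those of at least 0.5 log2 units were counted. Depth was estimated from the spacing of low CPM values, and 95% Poisson intervals from it. The estimate was checked on simulated single libraries only, which cannot show that it holds for averages over several libraries. Common 50-base words of transcripts were counted in GENCODE. The genes and lists were chosen with earlier results of these data known. Every splicing factor could be named. For each family the rule took the 3 highest and 3 lowest levels and the 3 largest rises and falls, and for the other splicing genes the 3 highest and lowest levels. HNRNPLL, HNRNPAB, SNRPE and the other splicing genes named for their differences were chosen after their values were seen. Python 3.11.15, pandas 2.3.3 and numpy 2.4.6 were used.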

Additional observations from a re-analysis of the deposited data

How the results depend on the processing

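All values are averages over pooled libraries, so replicate error is unknown. Each comparison between the fits is confounded with cells, USP28 status (knockout and added alleles), transduction and normalization. No paired analysis was possible because the deposited averages pool the samples of a fit and give no value per library, so that no test was run here. With the longest transcript the family medians in log2 CPM per kb for SRSF, HNRNP, SF3 and SNRP were 6.14, 7.16, 5.66 and 6.03 in the knockout fit and 5.61, 6.997, 5.66 and 5.95 in the reconstitution fit, and with the union of exons 4.82, 6.04, 5.31 and 5.38, and 4.56, 5.95, 5.21 and 5.53. Each family median stayed above that of all genes. Without the gene copies, an alternative chosen after seeing the data, HNRNP came to 8.04 and 8.06 and SNRP to 7.06 and 7.38, the SNRP difference turned from -0.033 to 0.035, and 7 splicing factors instead of 10 were lower by at least 0.5. A floor of 3 log2 CPM moved no family median by more than the median counting error of its single genes. With this floor in both fits 3 splicing factors were higher and 13 lower by at least 0.5. Of all genes past the floor, 12.95% were higher and 17.25% lower. Without centring, the medians of the difference for SRSF, HNRNP, SF3 and SNRP were -0.49, -0.30, -0.078 and -0.15, and against genes of like expression -0.47, -0.34, -0.11 and -0.21, so that the sign of the SF3 median turned. Against genes of like GC content, also chosen after seeing the data, SRSF came to -0.27 and HNRNP to 0.026. At a threshold of 1 log2 unit 0 splicing factors were higher and 3 lower, beside 2.41% and 6.61% of all genes. Without centring 2 were higher and 17 lower, beside 9.39% and 24.8% of all genes, and against genes of like expression 2 were higher and 15 lower, beside 13.43% and 18.27%. Of the 14 splicing factors past 0.5, 12 stayed past it in the same direction without centring, 12 against genes of like expression, 13 with genes of at least 3 log2 CPM in both fits and 6 against genes of like GC content, where SNRPB2 turned to 0.20 and SNRPGP15 came to -0.045. HNRNPA1, at 0.13, was at 0.01 without centring and at -0.02 against genes of like expression. The causes were not tested. Depth limits the lowest genes most.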
